A study of Mus musculus with 20 samples.

Results

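Collagen genes were followed in whole right and left atria of adult Tbx5 G125R/+ and control mice. A gene was included when its symbol in the right atrium table was Col, a number, the letter a and a number, and the same Ensembl IDs were looked up in the left atrium table. This gave 43 of 33446 genes, and all 43 had values in both tables. By the textbook classes of the proteins they encode, 11 are fibrillar collagens, 6 are basement membrane collagens (type IV) and 26 are others. The basement membrane class holds type IV only, so Col15a1 and Col18a1, also found in basement membranes, count among the others. The libraries form 4 groups of 5, namely Tbx5 G125R/+ right atria, control right atria, Tbx5 G125R/+ left atria and control left atria, all from females of 8 to 12 weeks. The mutants carry a single copy of the G125R allele, a glycine to arginine change in the DNA-binding T-box of Tbx5 that was made with CRISPR-Cas9. The allele was inherited, so it is not limited to any cell type. The right atrium samples included the sinoatrial node.

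Collagens are triple-helical proteins wound from separate chains, and each gene encodes a chain. Fibrillar collagens, above all types I and III in the heart, are secreted as procollagens by fibroblasts, trimmed, packed into fibrils and crosslinked, and they give the atrial wall its tensile strength. Type IV collagens form the sheet-like network of basement membranes around cardiomyocytes, endothelium and mural cells. Other families cover fibrils, link them to cells, form beaded filaments or release signalling fragments. The study asked whether the mutant atria carried signs of fibrosis, and collagen transcripts are among the usual markers of it. In these same samples it examined Col1a1, Col3a1, Ctgf, Tgfb1 and Postn, and reported only Postn as lower, in right atria. The values of Col1a1 and Col3a1 given here are therefore not independent of that result. Its collagen staining of older mice showed a trend to a smaller fibrotic area that was not significant. In single-nucleus data of right atria, the study reported a smaller fraction of fibroblast nuclei and a larger fraction of cardiomyocyte nuclei in the mutant.

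Libraries held 17.5 to 26.8 M reads in the right and 19.1 to 24.8 M reads in the left atria. Mitochondrial rRNA took 7.28% to 15.7% of reads in the right and 19.5% to 46.7% in the left atria. Tbx5 averaged 6153 ± 584 normalized counts in Tbx5 G125R/+ and 6113 ± 1088 in control right atria (SD, n = 5 each; adjusted p = 0.937 with limma). In left atria Tbx5 averaged 1520 ± 189 in Tbx5 G125R/+ and 1459 ± 329 in control libraries (adjusted p = 0.794 with limma). The 10 cardiomyocyte markers were expressed in every group. Any atrial library would show this, so it does not check the labels of side or genotype. The labels do not tell which animal gave which library, so p-values measure the spread between libraries. In whole tissue, fewer cells of a type and less RNA per cell cannot be told apart.

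Upstream sequences are shown for the members on which the comparisons turn: Col16a1 and Col8a2, which passed the test in right atria, Col5a3, which had the largest change in left atria, and the stretch between the starts of Col4a4 and Col4a3. They were taken from RefSeq on build GRCm38.p6 and run 5′ to 3′ on the strand of the named gene up to its start. Col16a1 is on chr4:130047590-130047839, plus strand, Col8a2 on chr4:126286544-126286793, plus strand, Col5a3 on chr9:20815068-20815317, minus strand, and the Col4a4 stretch on chr1:82586850-82586920, minus strand.
Col16a1: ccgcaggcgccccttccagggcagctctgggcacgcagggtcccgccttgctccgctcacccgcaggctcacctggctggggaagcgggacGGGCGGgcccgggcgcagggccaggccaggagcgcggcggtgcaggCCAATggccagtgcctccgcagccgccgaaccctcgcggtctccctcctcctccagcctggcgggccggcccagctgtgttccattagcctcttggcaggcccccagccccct
Col8a2: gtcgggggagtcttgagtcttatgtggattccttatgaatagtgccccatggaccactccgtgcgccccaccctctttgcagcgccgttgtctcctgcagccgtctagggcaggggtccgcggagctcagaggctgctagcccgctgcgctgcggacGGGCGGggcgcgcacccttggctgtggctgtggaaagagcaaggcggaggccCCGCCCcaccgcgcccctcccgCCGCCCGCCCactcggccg
Col5a3: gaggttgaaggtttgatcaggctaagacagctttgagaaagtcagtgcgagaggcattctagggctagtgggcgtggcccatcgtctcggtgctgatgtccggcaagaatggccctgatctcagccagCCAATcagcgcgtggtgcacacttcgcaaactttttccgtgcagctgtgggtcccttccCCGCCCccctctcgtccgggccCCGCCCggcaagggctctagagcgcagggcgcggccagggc
Col4a4: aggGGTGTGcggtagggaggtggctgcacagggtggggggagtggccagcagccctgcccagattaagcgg
Capitals mark matches to 4 motifs that were searched on both strands. The first was GGTGTG, the core of the site that T-box factors bind. The second was the GC box, spelled GGGCGG, and neighbouring GC boxes can share bases. The others were the CCAAT box and the TATA box, which was searched as TATAA. Promoters of 35 of the 43 members were found in the table, 38 sequences in all. Over windows of 250 bases before the start, the T-box core was in 7 of 38 member promoters (18.42%) and in 16.28% of all 32851 promoters. The GC box was in 22 of 38 (57.89%) and in 32.74% of all, the CCAAT box in 13 of 38 (34.21%) and in 33.85%, and the TATA box in 7 of 38 (18.42%) and in 22.78%. Col16a1 held a GC box and a CCAAT box, Col8a2 held 4 GC boxes, and Col5a3 held 2 GC boxes and a CCAAT box. Col16a1, Col8a2 and Col5a3 held no T-box core. The 71 bases between the oppositely directed starts of Col4a4 and Col4a3 held a T-box core, and no share was taken over windows of that length.

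Collagen transcripts of right atria were dominated by a few chains. Per kilobase of transcript, Col3a1 (type III) stood first, with 4684 normalized counts per kb in Tbx5 G125R/+ and 5657 in control right atria. Col1a2 (type I) followed with 1404 in Tbx5 G125R/+ and 1697 in control right atria, and Col4a1 (basement membranes) with 1344 in Tbx5 G125R/+ and 1488 in controls. Col4a2, the partner of Col4a1, had 681 in Tbx5 G125R/+ and 749.7 in control right atria. The ranges of these 4 genes overlapped between genotypes. Fibrillar collagens made up 57.7% of the summed collagen level per kb, basement membrane collagens 19.6% and others 22.7%. At the low end, Col2a1, Col11a1, Col24a1, Col6a4, Col9a1, Col9a2, Col19a1 and Col22a1 averaged under the minimum of 10 normalized counts and were not tested, which left 35 members. Types II, IX and XI among them are known as cartilage collagens.

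The first comparison asked which collagens differ in Tbx5 G125R/+ right atria. The 2 collagens that passed the test were minor ones, at a share near that of all genes. Genes encoding the main fibril chains did not pass it. Whether main and minor chains differ from each other in their change was not tested. Col16a1, a fibril-associated collagen, and Col8a2, a chain of the hexagonal networks of type VIII, were lower in Tbx5 G125R/+ right atria. Of 35 members tested, 0 were higher and 2 were lower with limma (adjusted p under 0.05), that is 5.71%, where 6.23% of all 14288 genes tested were called, 3.09% higher and 3.14% lower. The median log2 fold change of the members was -0.07, against -0.01 over all genes tested, with 17 positive and 18 negative. The plot of changes by class shows this for every tested member.

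**Figure D1:**
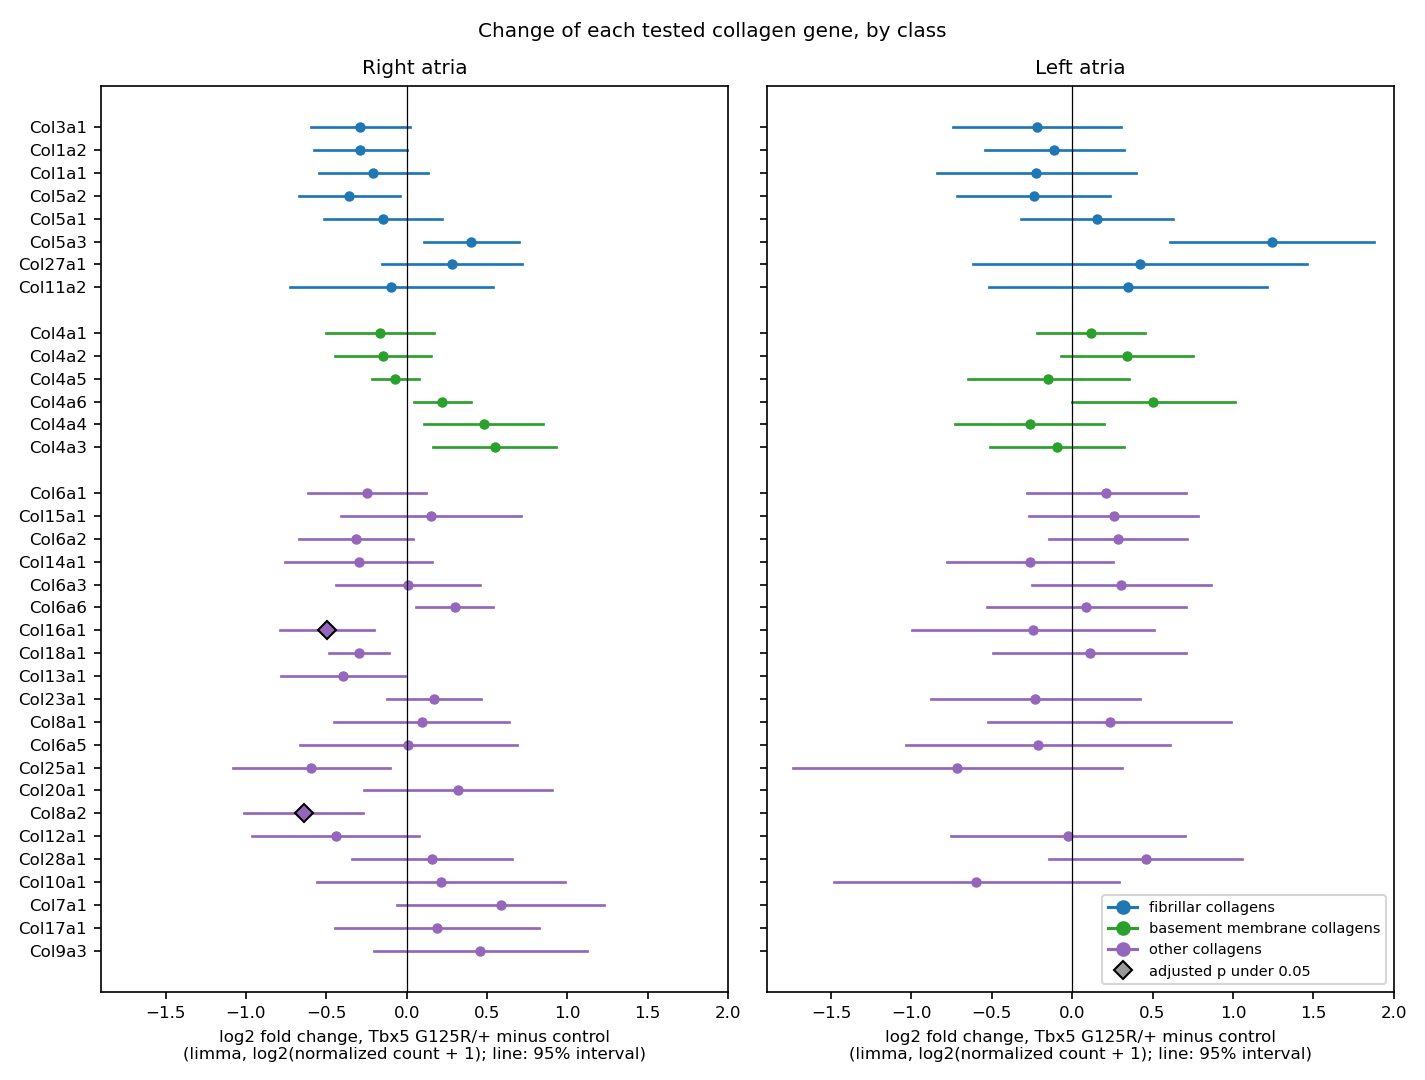
Log2 fold change of each tested collagen gene, Tbx5 G125R/+ minus control, with its 95% interval, in right (left panel) and left atria (right panel). Genes are ordered within each class by level per kb. Diamonds mark Col16a1 (-0.49) and Col8a2 (-0.64), the 2 that passed the test, and Col5a3 in left atria stands farthest to the right (1.24).

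Col16a1 (ENSMUSG00000040690, chromosome 4, 130047840 to 130099283, plus strand) encodes a minor collagen found beside fibrils and microfibrils. Its normalized counts were 749, 457, 752, 617 and 722 in Tbx5 G125R/+ libraries 1 to 5, against 854, 890.1, 1135, 815 and 907 in control libraries 1 to 5. Every Tbx5 G125R/+ library lay below every control library, with Tbx5 G125R/+ library 2 lowest and control library 3 highest. The log2 fold change was -0.49 ± 0.14 (SE), with an adjusted p of 0.0488 with limma and 0.0569 with the quasi-likelihood test of edgeR. The call ended when any library but Tbx5 G125R/+ library 1 was left out (adjusted p of 0.0546 to 0.117 with limma).

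Col8a2 (ENSMUSG00000056174, chromosome 4, 126286793 to 126314330, plus strand) is best known from Descemet's membrane of the cornea and from vessel walls. It had 40.7, 37.0, 59.3, 40.2 and 43.4 normalized counts in Tbx5 G125R/+ and 58.1, 64.1, 89.7, 59.0 and 75.6 in control right atria. Groups overlapped only through Tbx5 G125R/+ library 3, which lay just above the 2 lowest controls. The log2 fold change was -0.64 ± 0.17 (SE; adjusted p = 0.0442 with limma and 0.0584 with edgeR). Leaving out any library but Tbx5 G125R/+ library 3 or control library 1 ended the call (0.0570 to 0.112 with limma). Its partner chain Col8a1 had a log2 fold change of 0.09 ± 0.25 (adjusted p = 0.865).

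Col18a1 (ENSMUSG00000001435, chromosome 10, 77052178 to 77166548, minus strand) encodes a basement membrane proteoglycan whose C-terminal piece is endostatin, an inhibitor of vessel growth. Its normalized counts were 597, 560.2, 753, 659.6 and 749.6 in Tbx5 G125R/+ right atria, against 799, 819.6, 863, 764 and 812 in controls. Here too every Tbx5 G125R/+ library lay below every control library, by a narrow margin. The log2 fold change of -0.30 ± 0.09 (SE) missed the threshold with limma (adjusted p = 0.0637) and passed it with DESeq2 on the recovered reads (0.0340). It also passed with limma without Tbx5 G125R/+ library 3 (0.0482) or library 5 (0.0477). Col16a1 and Col18a1 were the 2 tested members without overlap between groups, that is 5.71% of 35, where 7.36% of all genes tested had none, 3.83% with the mutant below and 3.53% with the mutant above.

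The fibrillar class held 8 tested members, of which 0 were called, 6 with negative and 2 with positive fold changes and a median of -0.18. Col3a1 (ENSMUSG00000026043), the chain of type III collagen, had 27497, 17663, 30265, 26075 and 28820.2 normalized counts in Tbx5 G125R/+ and 28949, 28137, 37569, 29162 and 33557 in control right atria. Tbx5 G125R/+ library 2 was far below the rest and the groups overlapped among the others. The log2 fold change was -0.29 ± 0.14 (SE), with a 95% interval of -0.60 to 0.02 and an adjusted p of 0.270 with limma.

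Col1a1 (ENSMUSG00000001506) and Col1a2 (ENSMUSG00000029661) encode the chains of type I collagen, the stiff main fibril of the heart. Col1a1 had 3126, 2714, 5107, 2969.7 and 3706 normalized counts in Tbx5 G125R/+ and 4022, 4298, 4893, 3329.7 and 3467 in control right atria, and the highest of all 10 was a mutant library. Its log2 fold change was -0.21 ± 0.16 (SE), with a 95% interval of -0.55 to 0.13 (adjusted p = 0.479). That of Col1a2 was -0.29 ± 0.13, from -0.58 to 0.0046 (adjusted p = 0.243). As a mutant to control ratio, the 95% interval ran from 0.661 to 1.02 for Col3a1 and from 0.684 to 1.10 for Col1a1. Type V collagen, which sets the width of type I fibrils, had mixed values: -0.36 ± 0.14 for Col5a2 (0.177), -0.15 ± 0.17 for Col5a1 (0.652) and 0.40 ± 0.14 for Col5a3 (0.110).

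Col5a3 (ENSMUSG00000004098, chromosome 9, 20770050 to 20815067, minus strand), the least common type V chain, had 966, 899.7, 1309, 812 and 892 normalized counts in Tbx5 G125R/+ right atria, against 989, 663, 674, 681 and 677 in controls. Control library 1 stood among the mutants, while the other 4 controls lay close together below all mutants. Without control library 1 the adjusted p with limma was 0.0213. It was the only library whose omission brought Col5a3 past the threshold in right atria.

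The 6 type IV genes lie as 3 head-to-head pairs, and each pair encodes chains that assemble together or with a chain of another pair. No type IV gene was called in right atria. Col4a1 and Col4a2, the chains of nearly all basement membranes, had log2 fold changes of -0.17 ± 0.16 and -0.15 ± 0.14 (adjusted p = 0.566 and 0.571). Col4a3 and Col4a4, known from kidney, lung and cochlea and mutated in Alport syndrome, had 0.55 ± 0.18 and 0.48 ± 0.17 (0.0922 and 0.125). Of the X-linked pair, Col4a5 had -0.07 ± 0.07 (0.577) and Col4a6 had 0.22 ± 0.08 (0.138). Col4a3, like Col6a6, Col8a1, Col13a1 and Col25a1, lies outside the rule for named genes and was chosen after its values were seen.

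Col4a4 (ENSMUSG00000067158, chromosome 1, 82448423 to 82586849, minus strand) had 864, 441, 654, 550.4 and 642 normalized counts in Tbx5 G125R/+ right atria, against 548, 457, 518, 345 and 374 in controls. Col4a3 (ENSMUSG00000079465, chromosome 1, 82586921 to 82722059, plus strand) had 354, 183, 219.5, 175 and 192 in Tbx5 G125R/+ right atria, against 157, 149, 177, 133 and 128 in controls. In both genes Tbx5 G125R/+ library 1 was the highest of all 10 and the groups overlapped. An antisense gene shares 563 exonic bases with Col4a3, and the library kit does not mark strand, so reads of both cannot be told apart. Col4a3 passed with DESeq2, which called 4 of 35 members (11.4%, against 9.19% of all genes), Col16a1, Col18a1, Col8a2 and Col4a3. The quasi-likelihood test of edgeR called 0 of 35, against 6.09% of all genes.

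**Figure D2:**
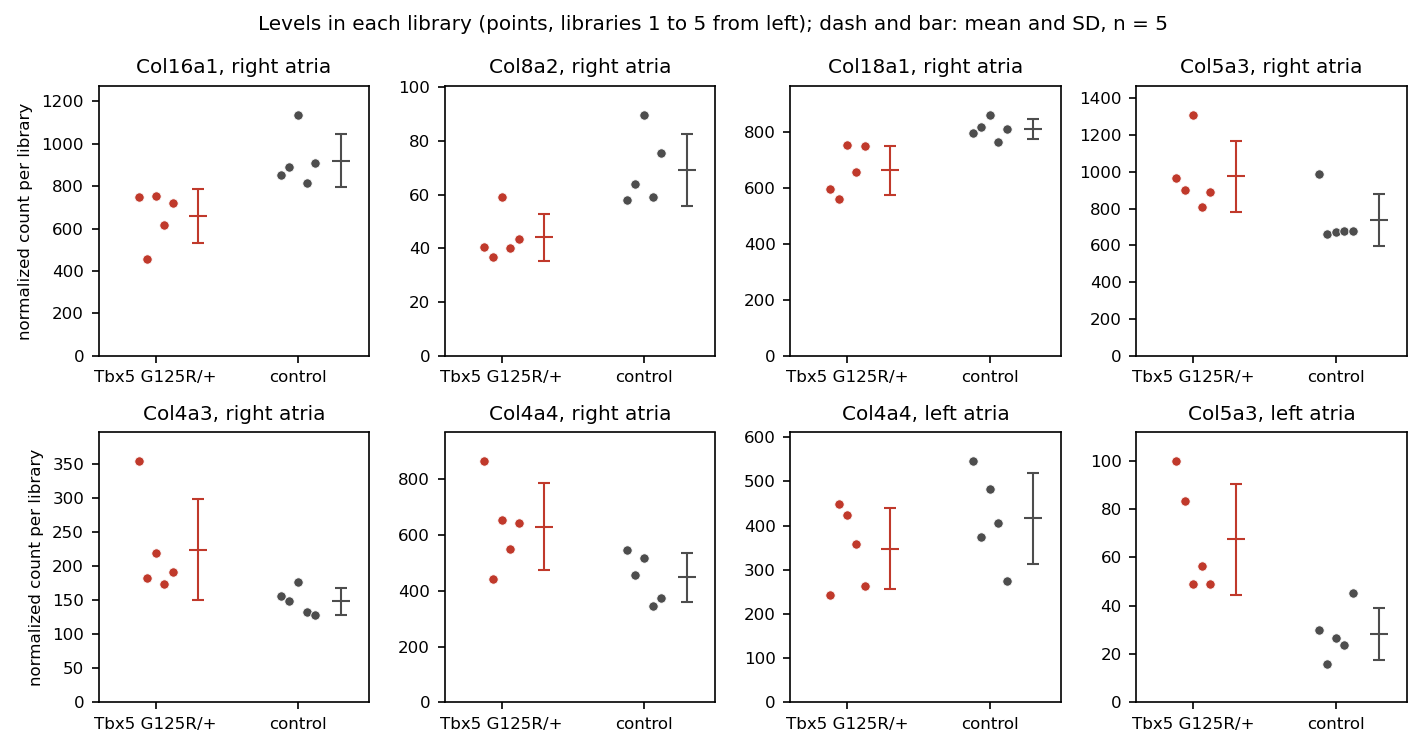
Normalized counts of Col16a1, Col8a2, Col18a1, Col5a3, Col4a3 and Col4a4 in right atria, and of Col4a4 and Col5a3 in left atria, for each library, with the mean and SD of 5 libraries beside the points. Tbx5 G125R/+ libraries lie below all controls for Col16a1 and Col18a1 in right atria and above all controls for Col5a3 in left atria.

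Among the 26 other collagens, 21 were tested, 0 were higher and 2 were lower. The beaded-filament chains of type VI, which tie cells to the surrounding matrix, were not called: Col6a1 had -0.25 ± 0.17 (adjusted p = 0.433), Col6a2 -0.32 ± 0.16 (0.290) and Col6a3 0.01 ± 0.21 (0.984). Col6a6 had 0.30 ± 0.11 (0.139). Col14a1, which coats fibrils, had -0.30 ± 0.21 (0.444), and Col15a1, a basement membrane multiplexin of heart and muscle, 0.15 ± 0.26 (0.781). The transmembrane collagens Col13a1 and Col25a1 had -0.40 ± 0.18 (0.224) and -0.59 ± 0.23 (0.153). Col6a4, too low to be tested, had 2.32, 4.48, 1.77, 2.62 and 6.2 normalized counts in Tbx5 G125R/+ and 0.953, 0.916, 0, 1.05 and 0.922 in control right atria, which is a handful of reads per library at most.

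At an unadjusted p under 0.05, 11 of 35 members passed in right atria, 5 higher and 6 lower, that is 31.4%, against 21.3% of all genes tested. The 5 were Col4a3, Col4a4, Col4a6, Col5a3 and Col6a6, and the 6 were Col5a2, Col8a2, Col13a1, Col16a1, Col18a1 and Col25a1. Col3a1, Col1a1, Col1a2, Col6a1, Col6a2, Col6a3, Col4a1 and Col4a2 were not among them.

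In right atria, many collagens were highest or lowest in the same library of a genotype. Among Tbx5 G125R/+ right atria, library 3 was highest in 25 of the 35 members and library 2 lowest in 15. Among controls, library 3 was highest in 20 and library 5 lowest in 20. In left atria the highest members were more spread, with library 1 highest in 11 of 29 in Tbx5 G125R/+ and in 13 in controls. The lowest was Tbx5 G125R/+ library 5 in 18 members and control library 4 in 13. Ranks over all genes were not examined. The summed collagen level per kb was 12343, 10274, 16632, 12834 and 13748 in Tbx5 G125R/+ and 14671, 15142, 18318, 13542 and 13852 in control right atria, a ratio of means of 0.872, and these ranges overlapped. The sum for 15 fibroblast markers, most of it Gsn, a gene that many cell types express, ran from 31405 to 58664 in Tbx5 G125R/+ and from 31340 to 79674 in control right atria, again with library 3 highest in each genotype. Its part in the collagen values was not tested.

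**Figure D3:**
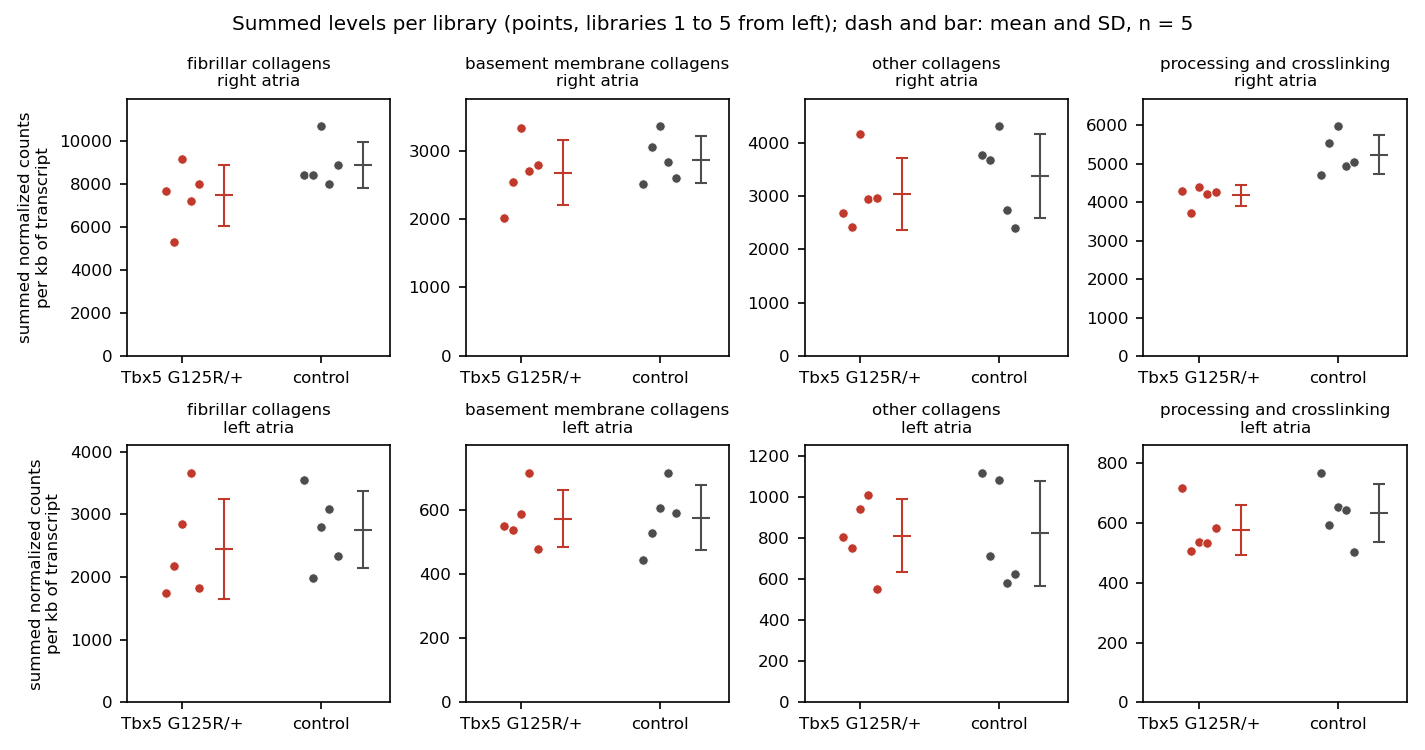
Summed normalized counts per kb of transcript for fibrillar, basement membrane and other collagens and for 14 genes of collagen processing and crosslinking, in each library of right (top) and left atria (bottom), with mean and SD (n = 5). Ranges of the collagen sums overlap between genotypes in each panel, and the processing sum of right atria does not.

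Some genes whose products fold, trim and crosslink collagen were lower in Tbx5 G125R/+ right atria. This list and those below were chosen with earlier results of these data known, so their shares are descriptions and not independent evidence. Of 18 tested genes of collagen folding and secretion, 0 were higher and 3 lower (16.7%, where 6.23% of all genes were called and 3.14% were lower), with a median log2 fold change of -0.15 against -0.01 over all genes. Fkbp10, a chaperone of procollagen in the endoplasmic reticulum, had 599 ± 49.2 normalized counts in Tbx5 G125R/+ and 877 ± 90.2 in control right atria (SD, n = 5 each), without overlap, a log2 fold change of -0.55 ± 0.08 (SE; adjusted p = 0.00141 with limma). Plod2, a lysyl hydroxylase of the telopeptides, had -0.33 ± 0.09 (0.0415), and Ppib, a prolyl isomerase that acts with the prolyl hydroxylase complex, -0.24 ± 0.06 (0.0488). The call of Ppib ended without any of the 10 libraries (0.0543 to 0.125), and that of Plod2 without any but control library 4 or 5 (0.0502 to 0.104). Serpinh1, the collagen chaperone HSP47, had -0.21 ± 0.08 (0.170).

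Of 13 tested genes of processing and crosslinking, 0 were higher and 3 lower (23.1%, where 6.23% of all genes were called and 3.14% were lower), with a median of -0.28. Tgm2, a transglutaminase that crosslinks matrix proteins, had 5805 ± 219.8 normalized counts in Tbx5 G125R/+ and 7950.1 ± 1018 in control right atria, without overlap (-0.44 ± 0.09; adjusted p = 0.00739 with limma). Adamts3, which removes the N-propeptide of procollagens, had -0.45 ± 0.10 (0.0233), and Loxl2, a lysyl oxidase that starts crosslinks, -0.70 ± 0.16 (0.0192). The summed level of the list per kb was 3708 to 4403 in Tbx5 G125R/+ and 4702 to 5975 in control right atria, with Tgm2 alone averaging 1614 in Tbx5 G125R/+ and 2211 in control right atria. The call of Adamts3 ended without Tbx5 G125R/+ library 3 or 5 or control library 2 or 3 (0.0504 to 0.0639 with limma), and that of Loxl2 without Tbx5 G125R/+ library 2 or 4 or control library 2 (0.0536 to 0.0542).

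Among 14 tested genes of collagen breakdown and its inhibitors, 1 was higher and 1 lower (14.3%, where 6.23% of all genes were called). Ctsk, cathepsin K, which cleaves the collagen helix, had 353 ± 51.7 normalized counts in Tbx5 G125R/+ and 231 ± 43.7 in control right atria, without overlap (0.62 ± 0.14, SE; adjusted p = 0.0169 with limma). Its adjusted p was 0.339 with all 4 groups in a single limma fit, in which the calls of the listed genes named here other than Loxl2, Cnn1, Kdr, Mbp and Kcna1 ended. Timp1, an inhibitor of matrix metalloproteinases, had -0.66 ± 0.18 (0.0474), a call that ended without any library but Tbx5 G125R/+ library 5 or control library 1 (0.0587 to 0.117). Of 12 tested collagen receptors, 1 was higher, the proteoglycan Cspg4 (0.51 ± 0.12; 0.0190), and 1 lower, Cd44 (-0.43 ± 0.11; 0.0316). Together they were 16.7% of that list, against the same 6.23% of all genes. Cspg4 was lost without Tbx5 G125R/+ library 3 or 4 (0.0504 and 0.0567), and Cd44 without Tbx5 G125R/+ library 1, 2, 3 or 4 or control library 2 or 3 (0.0532 to 0.0841).

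Of 18 tested genes for proteoglycans and glycoproteins that bind fibrils, 0 were higher and 2 lower, 16 had negative fold changes and the median was -0.23. The share called was 11.1%, against 6.23% of all genes. Postn, periostin, made by activated fibroblasts, had 999.9 ± 295 normalized counts in Tbx5 G125R/+ and 2262 ± 723 in control right atria (-1.16 ± 0.24, SE; adjusted p = 0.0110 with limma). The study had singled out Postn on these samples, so its call is not independent evidence. Podn, a small leucine-rich proteoglycan that binds type I collagen, had 3074 ± 611 in Tbx5 G125R/+ and 4533 ± 554 in control right atria, without overlap (-0.57 ± 0.12; 0.0122). Dcn, decorin, the most abundant of the list per kb, had -0.24 ± 0.22 (0.561).

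The laminins that share basement membranes with type IV collagen changed in both directions in right atria. Of 18 tested basement membrane partners, 2 were higher and 2 lower (22.2%, against 6.23% of all genes). Lamb3 had 1958 ± 324 normalized counts in Tbx5 G125R/+ and 1100.1 ± 322 in controls (0.86 ± 0.18, SE; adjusted p = 0.0103 with limma), and Lama3, its trimer partner in laminin of epithelia, 236 ± 28.3 in Tbx5 G125R/+ and 157 ± 10.6 in controls (0.58 ± 0.10; 0.00333), both without overlap. Lama5, an alpha chain of vessel and epithelial laminins, had 1509 ± 194 in Tbx5 G125R/+ and 2266 ± 184 in controls, without overlap (-0.59 ± 0.09; 0.00135).

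Markers of cell types that make or border collagen were followed beside these values. Of 15 fibroblast markers 0 were called (2 positive, 13 negative, median -0.34), and 0 of 10 mesothelial (median -0.60), 0 of 10 macrophage (-0.36), 0 of 10 cardiomyocyte (0.02) and 0 of 9 adipocyte markers (-0.81). At an unadjusted p under 0.05 with limma, 3 of the fibroblast (20%) and 3 of the mesothelial markers (30%) passed, all lower. Of the macrophage markers 9 passed (90%), 1 higher and 8 lower, and 0 of the cardiomyocyte and 0 of the adipocyte markers did. Over all genes tested the share was 21.3%. Summed macrophage markers ran from 4524 to 6737 per kb in Tbx5 G125R/+ and from 6667 to 9569 in control right atria. Of 10 smooth muscle and pericyte markers, 2 were lower, Cnn1 (calponin, 15.9 ± 2.55 normalized counts in Tbx5 G125R/+ and 158 ± 49.0 in controls, adjusted p = 8.77e-07 with limma) and Acta2 (-0.86 ± 0.23; 0.0429). Acta2 was kept only without control library 1 or 5. That list, with 20% called, had 3 positive and 7 negative fold changes (median -0.05). Kdr, the VEGF receptor, was higher among 10 endothelial and endocardial markers (0.60 ± 0.07; 9.49e-05), which is 10% of that list. The endothelial list had 3 positive and 7 negative fold changes (median -0.09). Of 8 Schwann cell markers Mbp was higher (0.91 ± 0.16; 0.00347) and Kcna1 lower (-0.97 ± 0.21; 0.0172), together 25%. The Schwann cell list had 2 positive and 6 negative fold changes (median -0.10). Of 5 cartilage and valve markers Lect1 was higher (1.11 ± 0.28; 0.0319), a call lost without Tbx5 G125R/+ library 3, 4 or 5 or control library 1, 4 or 5. The cartilage list, with 20% called, had 3 positive and 2 negative fold changes (median 0.07). Over all genes tested, 6.23% were called. The cartilage genes Acan and Matn1 were at or near 0 in every library. The part of these cells in the collagen values was not tested.

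The second comparison asked the same in left atria, where 29 members were tested, 0 were called with limma, and 1.2% of all 13192 genes were (0.758% higher and 0.44% lower). At an unadjusted p under 0.05, 1 of 29 members passed (3.45%, against 16.6% of all genes). The quasi-likelihood test of edgeR also called 0 of 29, against 1.29% of all genes, and DESeq2 called 1, Col5a3, that is 3.45% against 3.15%. The median log2 fold change was 0.09, against -0.01 over all genes, with 15 positive and 14 negative. Col3a1 had -0.22 ± 0.24 (SE; adjusted p = 0.615), Col1a1 -0.22 ± 0.29 (0.665) and Col1a2 -0.11 ± 0.20 (0.765). Median values were 0.02 in 8 fibrillar, 0.01 in 6 basement membrane and 0.09 in 15 other collagens.

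Col5a3 had 99.7, 83.2, 48.8, 56.5 and 49.1 normalized counts in Tbx5 G125R/+ left atria, against 30.1, 16.0, 26.5, 23.6 and 45.1 in controls. Every Tbx5 G125R/+ library lay above every control library, the closest being mutant library 3 and control library 5. The log2 fold change was 1.24 ± 0.30 (SE), a fold of 2.37 with a 95% interval of 1.52 to 3.67, and the adjusted p with limma was 0.0641. It was the only tested member without overlap, that is 3.45% of 29, where 3.47% of all genes tested had none, 2.02% with the mutant above and 1.46% with the mutant below. The adjusted p was 0.00642 with DESeq2 and 0.00201 with all 4 groups in a single limma fit, and it also passed without Tbx5 G125R/+ library 4 or control library 5 (0.0392 and 0.0471). In left atria DESeq2 called 416 genes in all and the single fit 1233, where the main limma fit called 158. After removal of each library's GC trend, chosen after seeing the data, the log2 fold change was 1.01 ± 0.29 (0.129).

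Col24a1, a fibrillar collagen too low to be tested, had 7.78, 8.22, 12.9, 7.21 and 7.13 normalized counts in Tbx5 G125R/+ and 6.02, 4.56, 3.78, 3.37 and 6.86 in control left atria. The groups did not overlap but lay within a few reads of each other. In right atria its values overlapped, from 2.62 to 11.2 in Tbx5 G125R/+ and from 3.66 to 10.1 in controls. Of the 2 collagens called in right atria, Col16a1 had 29.9 ± 6.34 in Tbx5 G125R/+ and 39.3 ± 18.7 in control left atria (-0.24 ± 0.35; adjusted p = 0.701 with limma), and Col8a2 averaged 5.94 in Tbx5 G125R/+ and 6.11 in control left atria and was not tested.

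Over the 15 lists in left atria, a single gene was called, Lamb3 among 17 basement membrane partners, with 227 ± 71.0 normalized counts in Tbx5 G125R/+ and 98.2 ± 43.5 in controls (1.25 ± 0.28, SE; adjusted p = 0.0479 with limma). Its call ended without any library but Tbx5 G125R/+ library 4 or control library 4 (0.0620 to 0.139). The call also ended with each library's GC trend removed (0.0819 with limma) and with a minimum mean of 50 normalized counts (0.0548). The share called was 5.88% of the 17 partners, against 1.2% of all genes tested. None was called among 18 genes of folding and secretion (median 0.03), 11 of processing and crosslinking (-0.10), 13 of breakdown (-0.12), 11 receptors (-0.07), 18 fibril-binding proteins (-0.28) and 14 fibroblast markers (0.07). Of the other marker lists, all 10 cardiomyocyte markers had positive fold changes (median 0.30) while all 9 mesothelial (median -0.71) and all 7 adipocyte markers (-0.92) had negative ones. Medians were 0.41 over 9 smooth muscle, -0.07 over 10 endothelial, -0.18 over 10 macrophage, -0.20 over 7 Schwann cell and -0.45 over 3 cartilage and valve markers, and 0 of these lists' genes were called. Fkbp10 had -0.16 ± 0.30 (0.781), Tgm2 -0.04 ± 0.24 (0.935) and Postn -0.72 ± 0.34 (0.309).

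The third comparison asked whether a change differed between atria, as the change in left minus the change in right atria over all 20 libraries. The fit took these libraries as independent. Left and right atria may come from the same animals, which the labels do not tell, so its p-values ignore any such pairing. None of the 29 members tested in both atria was called, where 0.0638% of 12537 genes were. At an unadjusted p under 0.05, 4 of 29 passed (13.8%, against 8.14% of all genes). They were Col5a3 (0.84 ± 0.33, SE), Col6a2 (0.60 ± 0.26), Col4a4 (-0.74 ± 0.29) and Col4a3 (-0.64 ± 0.27), each with an adjusted p of 0.560 with limma. Col4a4, with a positive value in right atria, had 244, 448, 423, 359 and 264 normalized counts in Tbx5 G125R/+ and 545, 374, 482, 406 and 275 in control left atria. Its groups overlapped there throughout.

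Ratios of chains within a library do not depend on its scaling, and 4 were compared in each atrium with exact two-sided permutation tests, whose smallest possible p is 0.00794. None of the 8 passed after adjustment. The per-kb ratio of Col6a1 to Col6a3 was 3.79 ± 0.235 in Tbx5 G125R/+ and 4.55 ± 0.557 in control right atria (SD, n = 5 each; exact permutation p = 0.0159, adjusted 0.127). That of Col1a1 to Col1a2, whose proteins join at a fixed proportion, was 0.421 ± 0.0442 in Tbx5 G125R/+ and 0.397 ± 0.0215 in control right atria (exact permutation p = 0.325, adjusted 0.815). In left atria it was 0.157 ± 0.0329 in Tbx5 G125R/+ and 0.168 ± 0.0276 in controls (exact permutation p = 0.524, adjusted 0.815). The Col3a1 to Col1a1 ratio was 8.06 in Tbx5 G125R/+ and 8.50 in control right atria, and 37.3 in Tbx5 G125R/+ and 36.6 in control left atria.

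These ratios were thus far apart between atria in either genotype, and so were the levels, which come from tables normalized separately. Over the 29 collagens tested in both atria, the left over right ratio of mean normalized counts in controls ran from 0.0383 for Col5a3 to 2.15 for Col8a1. Across these collagens it fell with the GC content of the transcript, with Pearson's r of -0.89 in Tbx5 G125R/+ and -0.87 in control atria for its log2 value, as a description across genes, which share libraries and size factors. Over 12494 genes tested in both atria the values were -0.83 in Tbx5 G125R/+ and -0.84 in control atria. In controls, Col16a1 (61.4% GC) averaged 39.3 normalized counts in left and 920.0 in right atria, and Col1a1 (58.9%) averaged 352 in left and 4002 in right atria. Col4a3 (50.4%) averaged 158 in left and 149 in right atria of controls. The part of GC content in the levels was not tested.

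**Figure D4:**
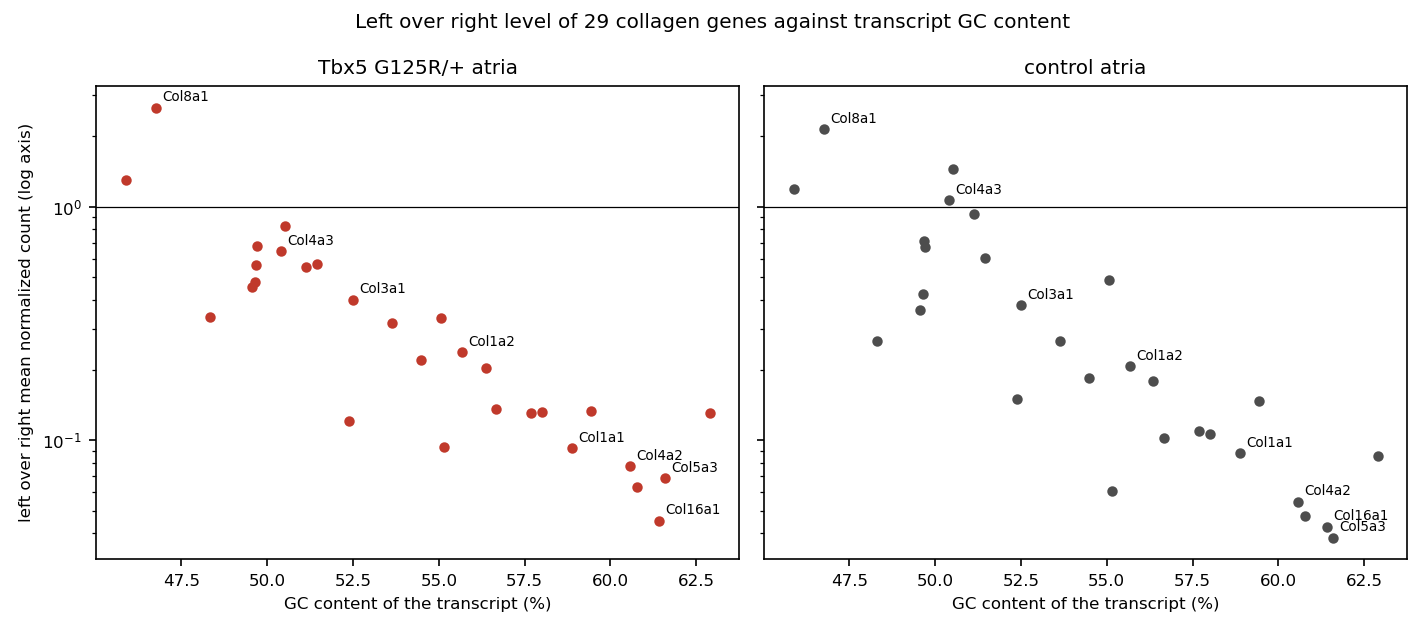
Left over right ratio of mean normalized counts (log axis) against the GC content of the transcript (%), for 29 collagen genes tested in both atria, in Tbx5 G125R/+ (left) and control atria (right). Each point is a gene. Col8a1 lies highest in both genotypes, Col16a1 lowest in Tbx5 G125R/+ and Col5a3 lowest in control atria.

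GC content also moved with the genotype comparison, in left atria. Across collagens, r between GC content and log2 fold change was 0.49 in left atria (29 genes) and 0.04 in right atria (35 genes), and over all genes tested 0.42 and -0.02. With each library's GC trend removed, the calls in right atria were again Col16a1 (-0.48, adjusted p = 0.0424 with limma) and Col8a2 (-0.64, 0.0436), and in left atria 0 collagens were called.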

How the data were processed

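RNA libraries of whole atria were made with a kit that does not mark strand. Per the authors, reads were mapped to mm10 with STAR and gene counts were normalized with DESeq2, versions not given in the sources used here. The deposited signal values are normalized counts, that is gene counts divided by a size factor per library, in a table per atrium. The authors' own fold changes and p-values in those tables were not used. Whole reads were recovered for 100% of values (tolerance 0.01 reads). Of 40924 right atrium entries, 6275 had no values and 1203 were repeats, which left 33446 genes, while the left table held 41128.

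Members and lists were chosen with earlier results of these data known. Genes averaging at least 10 normalized counts within an atrium were tested as log2(value + 1) with limma 3.58.1 in R 4.3.3 (trended empirical Bayes, two-sided), Benjamini-Hochberg adjusted over all genes tested. Fold changes are on the log2(value + 1) scale, which understates the change of low genes. Differences between atria were fitted over all 20 libraries. The quasi-likelihood test of edgeR 4.0.16 and DESeq2 1.42.0 were run on the recovered reads as alternatives, beside other pseudocounts, filters, scaling, single-library omission, a fit of all 4 groups and, chosen after seeing the data, removal of a GC trend per library (natural spline, 5 df). Chain ratios were tested by exact permutation. Lists covered collagen folding, processing, breakdown, receptors, fibril-binding proteins, basement membrane partners and 9 cell types. Named members were those called, those without overlap between genotypes, the 5 of each class with the highest mean normalized count in right atria, Col1a1 and Col3a1. From each list up to 4 called genes of lowest adjusted p were named. Other genes with values were chosen after these were seen. A called gene among the basement membrane partners is counted but not reported here. Gene positions, lengths and GC content came from GENCODE M21 (GRCm38). The fits were tested on simulated counts with the same dispersion for all genes and with larger changes than most reported here. Recovery of smaller changes was not tested.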

Additional observations from a re-analysis of the deposited data

Results flagged for a closer look

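Over 90 groups of 5 libraries, those of the named members and of the chain ratios, 6 held a library set apart from the other 4 by a gap that chance gives in about 1 in 20 groups. In right atria, Col3a1 was 17663 normalized counts in Tbx5 G125R/+ library 2, against 26075 to 30265 in the other 4. Tbx5 G125R/+ library 3 had 3311 for Col5a1, against 1993 to 2291, and 2377 for Col6a3, against 1414 to 1628. Control library 1 of the right atria had 989 for Col5a3, against 663 to 681. In left atria, Tbx5 G125R/+ library 1 had 259 for Col6a2, against 131 to 159.9, and control library 3 had 928 for Col15a1, against 436 to 532.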

How the results depend on the processing

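In right atria the 2 called collagens became 0 with no filter on low values, 1 with TMM scaling, 0 with edgeR, 4 with DESeq2, 0 with all 4 groups in a single fit, and 0 to 2 when a library was left out. The count of all genes called there, 890, was 292 with all 4 groups in a single fit and 600 to 1091 when a library was left out. In that single fit, limma's calls of Fkbp10 (adjusted p = 0.387), Tgm2 (0.470), Podn (0.105), Postn (0.0734), Lama3 (0.0706), Lama5 (0.105), Lamb3 (0.0888) and Ctsk (0.339) ended, among others, while those of Cnn1, Kdr, Loxl2, Mbp and Kcna1 held. In left atria the 0 called collagens became 1 with DESeq2, 1 with all 4 groups and 0 to 1 when a library was left out, and the 158 genes called became 416, 1233 and 71 to 370. For the difference between atria, 8 genes became 5 with the GC trend removed and 0 to 11 when a library was left out, and collagens stayed at 0 throughout. The cause of these shifts was not tested.

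With the replicate number as a block, 3 collagens were called in right atria (Col4a4 added, adjusted p = 0.0488 with limma) and 885 genes in all, and in left atria 1 collagen (Col5a3, 0.0494) and 693 genes. The block ended the right atrium calls of Ctsk (0.0527), Lect1 (0.0586) and Ppib (0.0903). Same-numbered libraries correlated at -0.03 to 0.27 in right and 0.03 to 0.32 in left atria. The best control partner had the same number for Tbx5 G125R/+ libraries 1, 3 and 5 in right and 1, 2 and 5 in left atria. The best mutant partner had the same number for control libraries 3 and 5 in right and 1, 4 and 5 in left atria. Whether the numbers pair libraries was not tested, and the main fits did not use them.

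Members that missed the threshold changed sign as follows, on the log2 scale. In right atria, Col6a3 became -0.0073 with edgeR and -0.019 with DESeq2. Between atria, Col1a1 became 0.0055 with TMM scaling. With the GC trend removed, left atrium changes became -0.023 for Col15a1, -0.15 for Col18a1, -0.17 for Col4a1, -0.13 for Col5a1 and -0.071 for Col6a1, and differences between atria became -0.00438 for Col14a1, -0.17 for Col15a1, -0.000692 for Col16a1, -0.094 for Col1a2, -0.11 for Col3a1 and -0.00291 for Col4a1. When a library was left out, right atrium changes ran from -0.076 to 0.31 for Col15a1 and -0.16 to 0.14 for Col6a3. Left atrium changes ran from -0.094 to 0.23 for Col18a1, -0.47 to 0.017 for Col1a1, -0.26 to 0.040 for Col1a2 and -0.31 to 0.014 for Col4a5. Differences ran from -0.10 to 0.19 for Col14a1, -0.053 to 0.33 for Col15a1, -0.073 to 0.45 for Col16a1, -0.26 to 0.22 for Col1a1, -0.095 to 0.20 for Col3a1, -0.24 to 0.085 for Col4a5 and -0.060 to 0.27 for Col5a2. Log2 differences of chain ratios ran from -0.15 to 0.00232 for Col3a1/Col1a1 in right and -0.16 to 0.12 in left atria, -0.050 to 0.018 for Col4a1/Col4a2 in right atria and -0.20 to 0.0019 for Col6a1/Col6a3 in left atria.

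Levels rest on normalized counts from tables scaled separately. Members under 10 normalized counts rest on a few reads.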
